A study of Mus musculus with 7 samples.

Results

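Transcripts for 10 genes of the amino acid and stress response controlled by the transcription factor ATF4 were followed in the mouse mesenchymal line C3H10T1/2 after exposure to purmorphamine, a small-molecule agonist of the Hedgehog signal transducer Smoothened. The genes were picked by symbol as known members of the response, with no threshold on their values: Atf4, Ddit3, Trib3, Chac1, Sesn2, Asns, Phgdh, Psat1, Shmt2 and Slc7a11. They were chosen with earlier results of these data known. Each had 1 row among the 18468 genes of the deposited count table. Both groups of cells were the same line, held for 12 h in Basal Medium Eagle without serum and then kept for 48 h without serum in either 2 μM purmorphamine (4 libraries, replicates 5 to 8) or 0.02% DMSO as vehicle (3 libraries, replicates 2 to 4). Vehicle-treated cells were therefore also deprived of serum, and no library from cells kept in serum was analysed here.

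Each value is a number of reads on the sense strand of a gene. The authors had resampled the reads to equal depth, and the libraries held 14337225 to 14342154 counted reads, so that a count of 0 would allow a level of up to 0.209 CPM (3 reads). Transcripts for Gli1, the direct target by which Hedgehog signaling is usually judged, numbered 12, 7 and 11 reads under DMSO, against 2811, 3171, 2576 and 2522 under purmorphamine. All 8 of the mesenchymal markers examined were present, with 277786 to 285822 reads in sum with vehicle and 250448 to 271981 with purmorphamine. Within that sum, and chosen after their values were seen, Vim went from 80160 ± 1150 to 42480 ± 843 reads (adjusted p = 1.73e-11) and Pdgfra from 10810 ± 254 to 18900 ± 400 (adjusted p = 3.92e-10 from edgeR). Markers of other cell types were scarce in comparison, but the sum of 4 endothelial markers moved from 2 to 9 reads with vehicle to 27 to 30 with purmorphamine, and the single epithelial marker with a row, Cdh1, from 14 to 21 reads to 110 to 135. Of the endothelial markers, Cdh5 was at 0 in all vehicle libraries and at 21 to 26 reads with purmorphamine. Leukocyte (3 of 4 with a row), neuronal (3 of 4), skeletal muscle (1 of 4) and mature adipocyte (1 of 4) markers summed to at most 75, 18, 3 and 19 reads in any library. The part of these marker changes in the results was not tested. As bulk RNA was sequenced, fewer cells that express a gene and less RNA per cell cannot be told apart.

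ATF4 is the central transcription factor of the integrated stress response. Kinases that sense amino acid shortage, unfolded protein in the endoplasmic reticulum, heme shortage or double-stranded RNA phosphorylate the initiation factor eIF2α, which lowers translation in general but raises that of the Atf4 mRNA through its upstream open reading frames. ATF4 is thus set largely at translation, which reads of the Atf4 transcript do not measure. The protein dimerizes with partners of the C/EBP family and others, binds C/EBP-ATF response elements, and drives genes that make, import and charge amino acids. In fibroblasts ATF4 is also needed for collagen production, as serine and glycine are used heavily there. Basal Medium Eagle is formulated without serine, glycine, proline and asparagine, which cells must then make.

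The C/EBP-ATF response element joins a site for each kind of partner, and the letters TGATGNAA were searched on both strands in promoter windows from 250 bases before to 50 bases after each RefSeq start (GRCm38.p6). Of 32817 promoters, 1303 (3.97%) held a match. Among the 10 genes, 4 held 1 or more: Asns, Slc7a11, Chac1 and Trib3. The windows around these matches are shown, 5′ to 3′ on the coding strand with the matches in capitals, to show the element in the genes whose values follow. Windows of 4 genes of the wider pathway are shown with them, Pycr1 and Slc1a4, which decreased, and Vldlr and Nupr1, which increased.
Asns, chr6:7693214-7693243, minus strand: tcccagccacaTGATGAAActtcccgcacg
Slc7a11, chr3:50443642-50443690, minus strand: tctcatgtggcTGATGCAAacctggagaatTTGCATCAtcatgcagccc
Trib3, chr2:152344028-152344057, minus strand: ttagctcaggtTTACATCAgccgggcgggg
Chac1, chr2:119351038-119351067, plus strand: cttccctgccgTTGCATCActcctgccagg
Pycr1, chr11:120643833-120643862, minus strand: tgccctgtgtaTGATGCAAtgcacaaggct
Slc1a4, chr11:20332699-20332728, minus strand: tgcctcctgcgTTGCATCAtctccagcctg
Vldlr, chr19:27216809-27216838, plus strand: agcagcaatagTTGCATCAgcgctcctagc
Nupr1, chr7:126625562-126625591, minus strand: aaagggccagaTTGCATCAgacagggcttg
The matches began 23 bases before the start for Asns, 66 and 47 before it for Slc7a11, 193 before it for Chac1 and 15 after it for Trib3. Slc7a11 was alone among the 10 in having a pair of matches, which face in opposite directions. A match is a description of the letters and not evidence of a bound site, and the absence of one in Atf4, Ddit3, Sesn2, Phgdh, Psat1 and Shmt2 says only that these letters are not in that window. In the wider pathway the element was also found in genes that increased (Vldlr, Nupr1, Jdp2 and Herpud1), that decreased (Pycr1, Slc1a4, Aars, Gars, Iars, Tars and Yars) and that were not called (Got1 and Pck2). It was found as well in Atf3, which did not pass the filter on low counts, and in Fgf21, which had no row among the counts.

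Purmorphamine lowered transcripts for most of the enzymes and the transporter in the set, while transcripts for Atf4 itself differed little. By the quasi-likelihood test of edgeR, with p-values adjusted after Benjamini and Hochberg over 12388 genes and called at the study's false-discovery rate of 0.2, 6 of the 10 genes decreased (Psat1, Phgdh, Asns, Shmt2, Slc7a11 and Trib3), 1 increased (Ddit3) and 3 were not called (Atf4, Sesn2 and Chac1). Among all genes tested, 3854 (31.1%) decreased and 3887 (31.4%) increased, so calls in either direction were common. A decrease of at least 1.5-fold was found for 5 of the 10 genes and for 936 of all genes (7.56%), and an increase of that size for none of the 10 and for 977 of all (7.89%). No purmorphamine library overlapped with a vehicle library for 5 genes that lay below and 1 that lay above, against 20.4% and 29.1% of all genes tested (49.5% in either direction). The median log2 fold change of the 10 genes was -0.50, and that of all genes tested 0.0038. All 10 genes passed the filter on low counts, Slc7a11 and Chac1 only through the vehicle group, so that a decrease in Slc7a11 was favored by the filter. Slc7a11 is nevertheless included in the 6 genes that decreased and in the 5 that did so by at least 1.5-fold. These counts describe 10 genes chosen with earlier results of these data known and are no test of them as a set. The labels do not state that the libraries came from separate cultures, so the p-values measure the spread between these libraries, which may be technical.

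**Figure D1:**
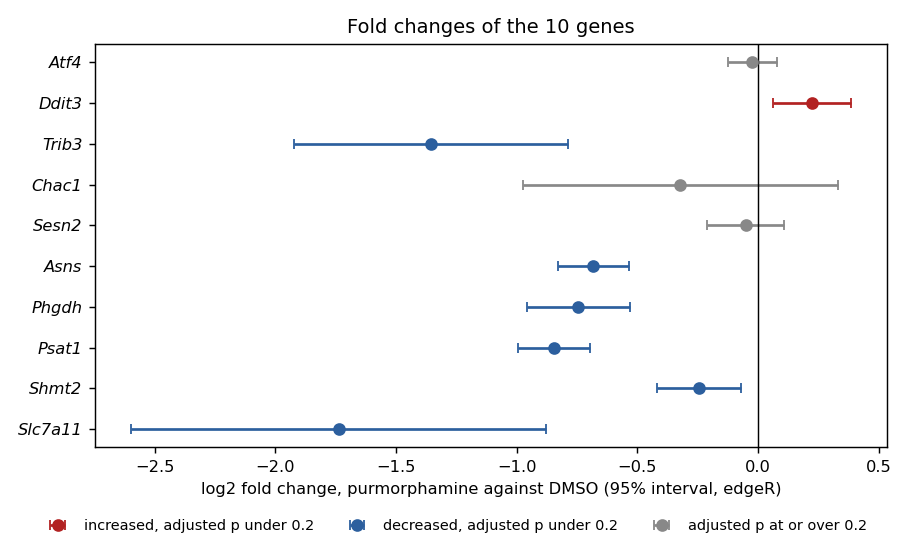
Log2 fold change of each of the 10 genes with purmorphamine relative to DMSO (x axis), with 95% intervals from edgeR, colored by call at an adjusted p of 0.2. Decreases run from -0.25 for Shmt2 to -1.74 for Slc7a11, the interval of Ddit3 (0.06 to 0.39) lies above 0, and those of Atf4, Chac1 and Sesn2 include 0.

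The enzymes of serine and asparagine synthesis showed the best supported decreases. Psat1 encodes phosphoserine aminotransferase, the second enzyme of serine synthesis (ENSMUSG00000024640, chromosome 19 from 15904678 to 15947337, minus strand, GRCm38 as for all positions that follow). It had 1395, 1425 and 1444 reads under DMSO, against 812, 816, 699 and 945 under purmorphamine. All purmorphamine libraries were below all vehicle libraries, by a wide margin. The log2 fold change was -0.84 (standard error 0.0705, 95% interval -0.99 to -0.70), or 44.3% lower, with an adjusted p of 3.18e-08 from edgeR. Permuting the treatment labels in all 35 ways gave an exact p of 0.0286 (two-sided, as for all such tests here), the lowest possible with 3 and 4 libraries.

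Phgdh, which encodes phosphoglycerate dehydrogenase, the enzyme that commits a glycolytic intermediate to serine synthesis (ENSMUSG00000053398, minus strand of chromosome 3 from 98313170 to 98339990), had 277, 272 and 267 reads under DMSO, against 179, 189, 134 and 169 under purmorphamine. The groups did not overlap, and the vehicle libraries were close to each other. Phgdh transcripts were 40.3% lower, a log2 fold change of -0.74 (standard error 0.101, 95% interval -0.96 to -0.53, adjusted p = 1.16e-05 from edgeR; exact permutation p = 0.0286). Psat1 and Phgdh, which act in succession, had log2 fold changes of -0.84 and -0.74, and the log2 ratio of their reads within a library was 2.38 ± 0.0514 under DMSO (SD, n = 3), against 2.28 ± 0.172 under purmorphamine (SD, n = 4). That difference of -0.10 did not exceed the spread among libraries (exact permutation p = 0.371), which does not show the decreases to be equal.

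Asns encodes asparagine synthetase, which makes asparagine from aspartate and glutamine and is a classical reporter of ATF4 activity (ENSMUSG00000029752, chromosome 6 from 7675169 to 7693254, minus strand). Its reads numbered 586, 576 and 616 under DMSO, against 340, 406, 378 and 403 under purmorphamine. Again no libraries overlapped between the groups. A log2 fold change of -0.68 was obtained (standard error 0.0703, 95% interval -0.83 to -0.53), or 37.7% lower (adjusted p = 4.63e-07 from edgeR; exact permutation p = 0.0286).

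Shmt2, which encodes the mitochondrial serine hydroxymethyltransferase that splits serine into glycine and a one-carbon unit (ENSMUSG00000025403, chromosome 10 from 127517123 to 127522444, minus strand), changed less. It had 502, 605 and 573 reads under DMSO, against 515, 544, 427 and 467 under purmorphamine. Vehicle replicate 2 lay within the purmorphamine range, so the groups overlapped. The log2 fold change of -0.25 (standard error 0.0824, 95% interval -0.42 to -0.07), or 15.6% lower, passed edgeR's test with an adjusted p of 0.022, but the exact permutation test gave p = 0.114.

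Slc7a11 encodes xCT, the light chain of the antiporter that imports cystine in exchange for glutamate and so supplies cysteine for glutathione, and is also a target of the oxidative stress factor NRF2 (ENSMUSG00000027737, chromosome 3 from 49892526 to 50443614, minus strand). It had 14 reads in each of the 3 vehicle libraries and 2, 9, 3 and 3 with purmorphamine. All purmorphamine libraries were below vehicle, but at this depth the counts were small, and replicate 6 stood apart from the other purmorphamine libraries. The fitted log2 fold change was -1.74 (standard error 0.407, 95% interval -2.60 to -0.88, adjusted p = 0.00209 from edgeR; exact permutation p = 0.0571). Because Slc7a11 passed the filter on low counts only through the vehicle group, a decrease was favored in advance. Its interval and p-values therefore describe these reads and are not independent support for a decrease. Without replicate 6 the log2 fold change was -2.37. Slc3a2, which encodes the heavy chain that pairs with xCT and several other transporters, had 2335 ± 56.3 reads under DMSO (SD, n = 3), against 2344 ± 110 under purmorphamine (SD, n = 4) (adjusted p = 0.497 from edgeR).

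Transcripts for the transcription factors in the set were not lower by this test. Atf4 (ENSMUSG00000042406, chromosome 15 from 80255184 to 80257541, plus strand) had 1798, 1803 and 1791 reads under DMSO, against 1857, 1949, 1723 and 1782 under purmorphamine. The purmorphamine libraries fell on both sides of the vehicle libraries. Its log2 fold change of -0.02 was near 0 (standard error 0.0483, adjusted p = 0.73 from edgeR; exact permutation p = 0.571), and its 95% interval of -0.13 to 0.08 bounds the change in Atf4 transcripts, not in ATF4 protein.

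Ddit3 encodes CHOP, a C/EBP-family factor that ATF4 induces and that takes part in stress-induced cell death (ENSMUSG00000025408, chromosome 10 from 127290774 to 127296288, plus strand). Its reads numbered 309, 323 and 343 under DMSO, against 399, 427, 382 and 362 under purmorphamine. All purmorphamine libraries were above all vehicle libraries, although replicate 8 and vehicle replicate 4 were close. Ddit3 transcripts were 16.9% higher, a log2 fold change of 0.23 (standard error 0.0763, 95% interval 0.06 to 0.39, adjusted p = 0.023 from edgeR; exact permutation p = 0.0571). Ddit3 overlaps with Mars on the opposite strand, and the counts are stated to be of the sense strand. Mars, a methionyl-tRNA synthetase gene, moved the other way (log2 fold change -0.32, adjusted p = 0.000105 from edgeR).

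Of the 3 remaining genes, Trib3 decreased and the other two did not pass the test. Trib3 encodes a pseudokinase that binds ATF4 and CHOP and limits their activity (ENSMUSG00000032715, chromosome 2 from 152337422 to 152344032, minus strand). It had 28, 23 and 35 reads under DMSO, against 11, 11, 16 and 8 under purmorphamine. The groups did not overlap although the counts were low. Trib3 thus had a log2 fold change of -1.36 (standard error 0.268, 95% interval -1.92 to -0.79), or 60.9% lower (adjusted p = 0.00051 from edgeR; exact permutation p = 0.0286).

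Chac1 encodes a γ-glutamylcyclotransferase that degrades glutathione (ENSMUSG00000027313, chromosome 2 from 119351229 to 119354381, plus strand). Its reads numbered 16, 11 and 13 under DMSO, against 9, 8, 12 and 15 under purmorphamine, and the groups overlapped. At this depth the interval of its log2 fold change, -0.97 to 0.33 around -0.32 (standard error 0.308) included both 0 and the value of Asns, so that neither is excluded by these counts (adjusted p = 0.417 from edgeR; exact permutation p = 0.286).

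Sesn2, which encodes a leucine-binding protein that restrains the growth kinase mTORC1 and is also induced by p53 (ENSMUSG00000028893, chromosome 4 from 132492032 to 132510501, minus strand), was measured with more precision. It had 406, 394 and 399 reads under DMSO, against 443, 392, 356 and 404 under purmorphamine, the latter on both sides of the former. Its log2 fold change was -0.05 (standard error 0.0755, 95% interval -0.21 to 0.11, adjusted p = 0.617 from edgeR; exact permutation p = 0.514).

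**Figure D2:**
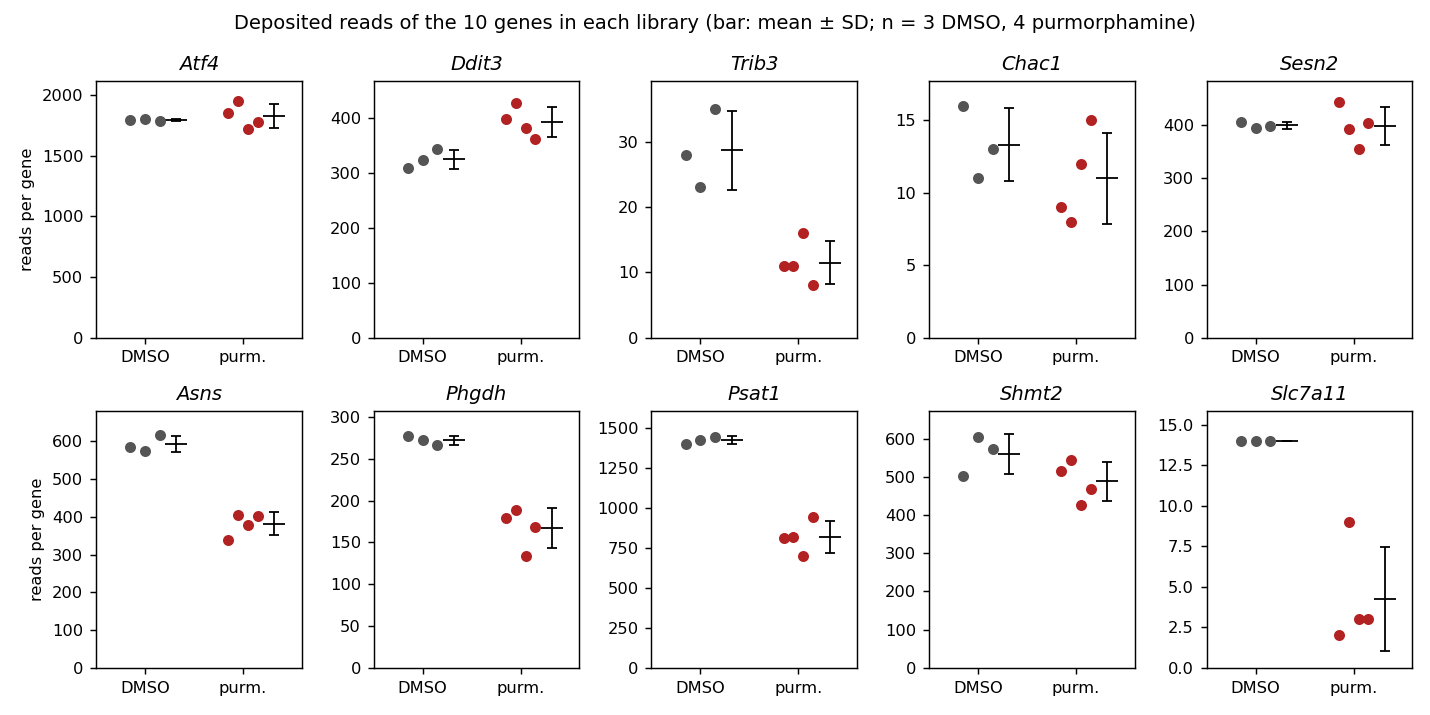
Reads of each of the 10 genes in the 7 libraries (y axes from 0, one panel per gene, a point per library, with the mean and SD of each group). Psat1, Phgdh, Asns, Trib3 and Slc7a11 show no overlap, with vehicle higher, Ddit3 shows none with purmorphamine higher, and Atf4, Sesn2, Chac1 and Shmt2 overlap.

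Purmorphamine libraries differed among themselves, and whether the genes shared an order of these libraries was not tested. After scaling, replicate 7 was the lowest of the 4 for Atf4, Sesn2, Phgdh, Psat1 and Shmt2, but the highest for Trib3. Replicate 6 was the highest for Atf4, Ddit3, Asns, Phgdh, Shmt2 and Slc7a11, but the lowest for Chac1. For Atf4 the SD was 6.03 reads with vehicle and 97.7 with purmorphamine, and for Psat1 24.7 and 101. Only for Shmt2 and Trib3 were the vehicle libraries the more variable, with SDs of 52.7 against 51.7 reads and 6.03 against 3.32.

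Expressed per length, as scaled reads per kilobase of the gene's exons, the level of Atf4 was the highest of the 10 with vehicle (1060 ± 1.64, SD, n = 3) and with purmorphamine (1040 ± 51.4, SD, n = 4). With vehicle the levels that followed were Psat1 (485 ± 9.02), Ddit3 (372 ± 20.3), Shmt2 (248 ± 22.8), Asns (247 ± 9.62), Phgdh (142 ± 2.52), Sesn2 (117 ± 2.11), Trib3 (14.4 ± 3.09), Chac1 (8.30 ± 1.59) and Slc7a11 (1.45 ± 0.00621). Neighbors in this order had ranges that overlapped only for Shmt2 and Asns. With purmorphamine Ddit3 (435 ± 29.6 per kilobase) stood above Psat1 (270 ± 32.2), Sesn2 (113 ± 9.89) above Phgdh (85.0 ± 11.7) and Chac1 (6.63 ± 1.91) above Trib3 (5.60 ± 1.65). The ranges of the last pair overlapped, while those of the others did not. The lower levels with purmorphamine for Shmt2, Asns and Slc7a11 were 209 ± 21.3, 154 ± 12.0 and 0.425 ± 0.318 per kilobase.

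Ratios of reads within a library, which do not depend on scaling between libraries, were compared for 8 pairs in which a gene was set against the factor, partner enzyme or paralog closest to it. Relative to Atf4, Ddit3 was higher with purmorphamine, the log2 ratio moving from -2.47 ± 0.0786 (SD, n = 3) to -2.22 ± 0.0557 (SD, n = 4). Asns was lower relative to Atf4, at -1.60 ± 0.055 with vehicle and -2.26 ± 0.134 with purmorphamine. For both ratios no libraries overlapped between the groups (exact permutation test, two-sided, p = 0.0286, and 0.0762 after adjustment over the 8 ratios). None of the 8 ratios reached 0.05 after this adjustment. With 3 and 4 libraries the lowest possible p of the exact permutation test is 0.0286. A single ratio at that value could not reach 0.05 after adjustment over 8, so no conclusion is drawn from this.

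Shmt2 relative to Shmt1, which encodes the cytosolic isoenzyme, moved from 1.54 ± 0.0389 to 1.17 ± 0.131 on the log2 scale, with no overlap (difference -0.36, exact permutation p = 0.0571, adjusted p = 0.0914 over the 8 ratios). Sesn2 relative to Sesn1 moved from -1.51 ± 0.0545 to -1.86 ± 0.111, again with no overlap (difference -0.34, exact permutation p = 0.0286, adjusted p = 0.0762). Slc7a11 relative to Slc3a2 differed by -1.68 without overlap (exact permutation p = 0.0571, adjusted p = 0.0914). For Chac1 relative to Chac2 and Trib3 relative to Trib1 the libraries overlapped, with differences of -0.51 and -0.45 (exact permutation p = 0.114 and 0.171, adjusted p = 0.152 and 0.196).

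**Figure D3:**
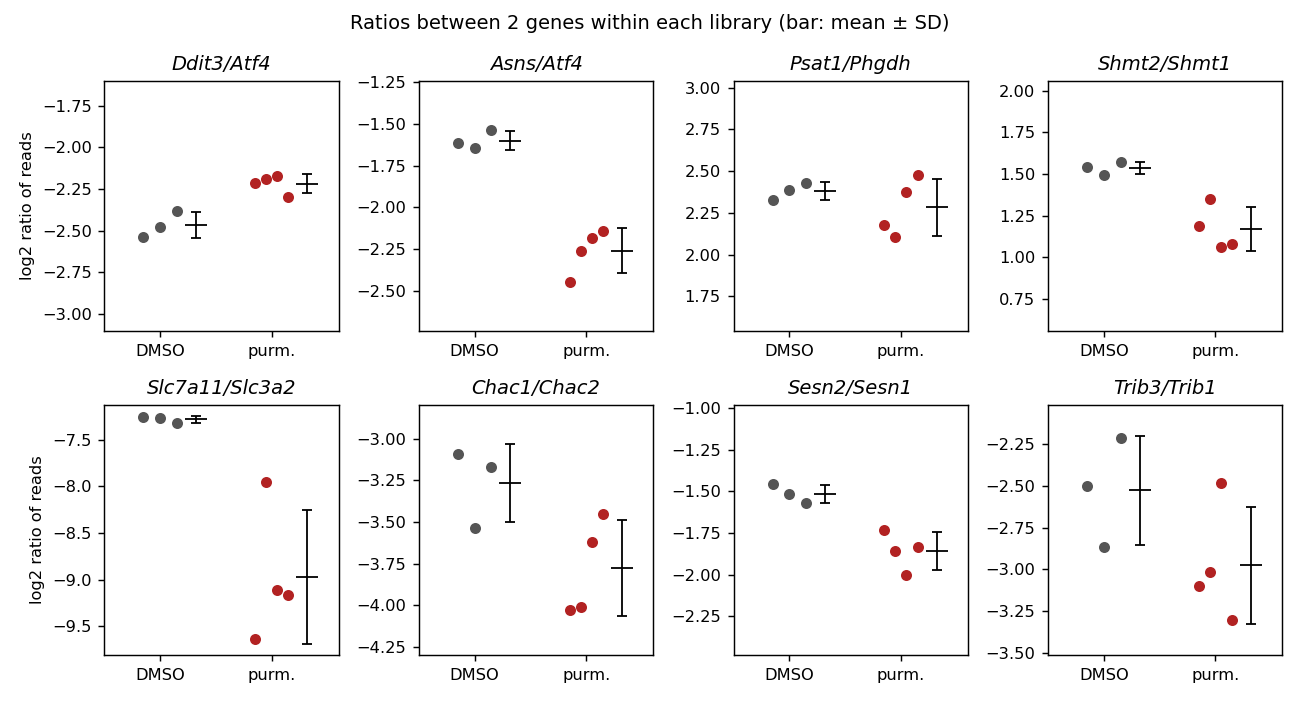
Log2 ratio of reads within each library for the 8 pairs (y axis, 1 read added to each count), with a point per library for vehicle (n = 3) and purmorphamine (n = 4), bars for mean and SD, and a separate axis range in each panel. Ddit3/Atf4 is higher with purmorphamine in all libraries, Asns/Atf4, Shmt2/Shmt1, Slc7a11/Slc3a2 and Sesn2/Sesn1 are lower in all, and Psat1/Phgdh, Chac1/Chac2 and Trib3/Trib1 overlap.

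Around these 10 genes, 127 others of the same and neighboring pathways were listed in 11 groups, of which 119 were tested. Of these, 62 decreased (52.1%), 25 increased and 32 were not called, with a median log2 fold change of -0.13, against 31.1% decreased and 31.4% increased among all genes tested. Changes of at least 1.5-fold were few, with 8 of the 119 decreased and 5 increased, against 7.56% and 7.89% of all genes tested. Those background shares apply to every list that follows. The lists, also chosen with earlier results of these data known, describe the surroundings and were not tested as sets.

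Upstream of ATF4, none of the 7 eIF2α kinases, phosphatase subunits and the α subunit increased, and 3 decreased by small amounts: Eif2ak1, the heme-regulated kinase HRI (log2 fold change -0.12, adjusted p = 0.0768), Eif2ak4, the amino acid sensor GCN2 (-0.20, adjusted p = 0.02), and Eif2s1, eIF2α itself (-0.24, adjusted p = 0.00148 from edgeR). Eif2s1 is named by rule as the largest change of the list, and both kinases were named after their values were seen. Eif2ak3, the kinase PERK of the endoplasmic reticulum, had 630.3 ± 29.3 reads under DMSO, against 614.8 ± 14.4 under purmorphamine (adjusted p = 0.254). Ppp1r15a, a stress-induced phosphatase subunit (GADD34) and itself a target of ATF4, had 220.7 ± 15.3 and 249.5 ± 13.1 reads (adjusted p = 0.224 from edgeR). All its purmorphamine libraries lay above vehicle in deposited reads, but the groups overlapped after scaling.

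Among 5 of 6 partner and stress factors that were tested, Atf5 (log2 fold change 0.43, adjusted p = 9.27e-05), Nupr1 (0.45, adjusted p = 0.02) and Jdp2 (0.19, adjusted p = 0.101) increased and Cebpg decreased (-0.27, adjusted p = 0.000727 from edgeR). Cebpg encodes C/EBPγ, a dimerization partner with which ATF4 drives amino acid and glutathione genes, and Atf5 is, like Atf4, governed by upstream open reading frames. Only Nupr1 came from the naming rule, the others being all that were called. Atf3, an ATF4 target and repressor, had 9, 19 and 24 reads under DMSO, against 1, 2, 3 and 9 under purmorphamine and did not pass the filter, so it was not tested.

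Of the serine, glycine and one-carbon enzymes other than the members above, 11 of 13 were tested, and 4 decreased (36.4%) while 3 increased (27.3%), shares near those of all genes tested (31.1% and 31.4%; median log2 fold change -0.09). Those that decreased were Aldh1l2, Mthfd2, Mthfd1l and Psph, of which the first 3 encode mitochondrial folate enzymes and Psph the last enzyme of serine synthesis. Aldh1l2 had 868, 854 and 822 reads under DMSO, against 540, 495, 483 and 614 under purmorphamine, well below vehicle in all 4 libraries (log2 fold change -0.72, adjusted p = 3.13e-07 from edgeR). For Mthfd2, Mthfd1l and Psph the log2 fold changes were -0.52, -0.50 and -0.36 (adjusted p = 0.000462, 0.00108 and 0.00338). With Phgdh and Psat1, transcripts for all 3 steps of serine synthesis thus decreased. The genes for the cytosolic enzymes, Mthfd1 (log2 fold change -0.09, adjusted p = 0.279) and Shmt1 (0.11, adjusted p = 0.333), did not pass the test. Among those that increased was Amt, of the glycine cleavage system (0.64, adjusted p = 0.00891 from edgeR). Other than Aldh1l2 and Amt these genes were named after their values were seen.

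Of 10 tested genes for synthesis of other amino acids, 6 decreased (60.0%, against 31.1% of all genes) and none increased (median log2 fold change -0.20). The largest change by rule was that of Pycr1, which encodes the mitochondrial reductase that completes proline synthesis, with 231, 230 and 253 reads under DMSO, against 91, 110, 95 and 111 under purmorphamine. The groups were far apart (log2 fold change -1.27, standard error 0.101, adjusted p = 1.78e-08 from edgeR). Its promoter holds the element shown above. Aldh18a1, the preceding step of proline synthesis, also decreased (-0.51, adjusted p = 8.15e-06), as did Cth of cysteine synthesis (-1.30, adjusted p = 0.000109, with 40.67 and 17 reads on average) and Glul, glutamine synthetase (-0.20, adjusted p = 0.00273 from edgeR). The transaminases Gpt2, Got1 and Got2, and also Pck2, were not called.

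Aminoacyl-tRNA synthetases join each amino acid to its tRNA. Of 20 cytosolic aminoacyl-tRNA synthetase genes, 17 decreased (85.0%, against 31.1% of all genes) and none increased, though by no more than 0.37 on the log2 scale (range -0.37 to 0.01, median -0.23), and in none did the change reach 1.5-fold. In 13 of the 20 the purmorphamine libraries all lay below vehicle, as they did in 20.4% of all genes tested. Tars, for threonine, showed the largest change, from 1344 ± 35 reads (SD, n = 3) to 1078 ± 44.4 (SD, n = 4; log2 fold change -0.37, adjusted p = 1.13e-05 from edgeR). Cars, Qars and Sars, for cysteine, glutamine and serine, were the 3 not called. The element was present in the promoters of 5 of the 12 synthetase genes with a window, Aars, Gars, Iars, Tars and Yars.

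Of 13 amino acid transporter genes, 6 decreased (46.2%, against 31.1% of all genes) and 3 increased (23.1%, against 31.4%; median log2 fold change -0.14). Slc1a4, which encodes the neutral amino acid transporter ASCT1 for alanine, serine and cysteine, had 354, 407 and 389 reads under DMSO, against 169, 206, 198 and 194 under purmorphamine, with no overlap (log2 fold change -1.05, adjusted p = 2.5e-08 from edgeR). Slc6a9, for the glycine transporter GlyT1, had 132, 115 and 139 reads under DMSO, against 77, 89, 67 and 79 under purmorphamine, again without overlap (-0.77, adjusted p = 7.83e-05). Those that increased, named after their values were seen, were Slc1a5 (0.40, adjusted p = 0.00226), Slc38a1 (0.23, adjusted p = 0.0178) and Slc7a1 (0.18, adjusted p = 0.0315 from edgeR), for glutamine and cationic amino acid transporters.

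**Figure D4:**
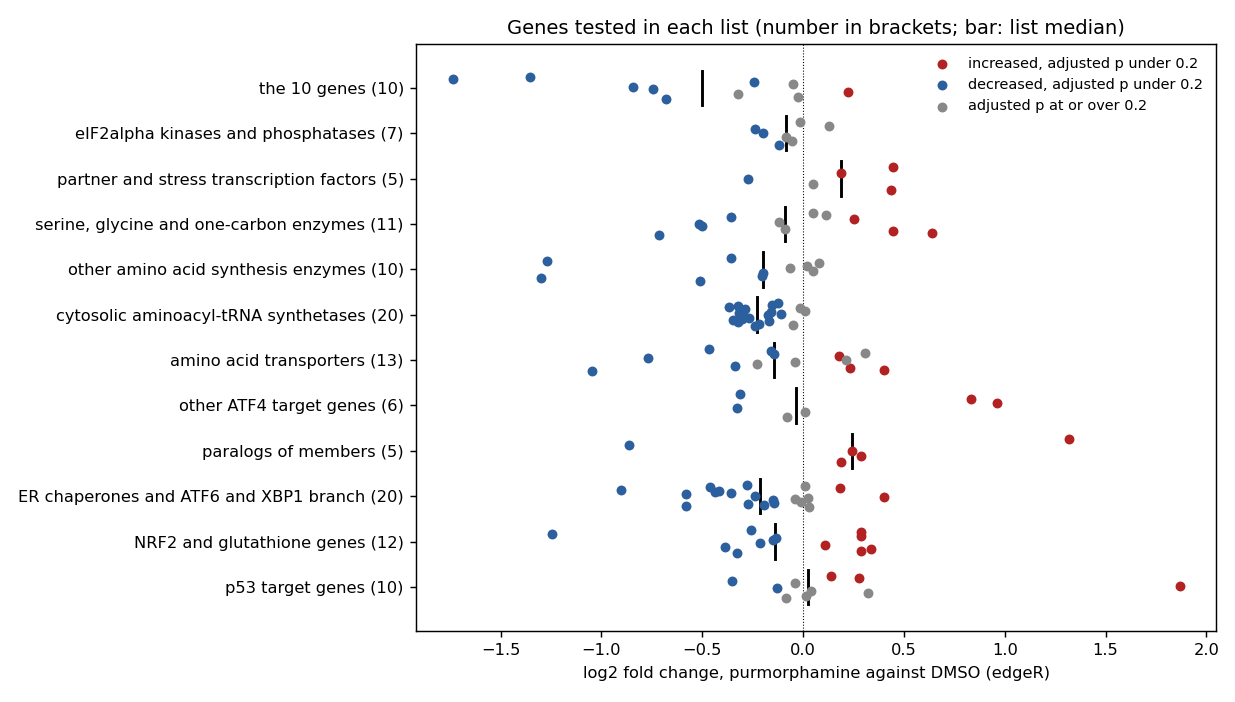
Log2 fold change with purmorphamine relative to DMSO (x axis) of each tested gene in the 10-gene set and in the 11 lists around it (rows), with a point per gene colored by call and a bar at the median of each list. The synthetase genes lie closely together from -0.37 to 0.01, and Eda2r (1.87) and Trib2 (1.32) lie farthest to the right.

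Of 6 other known ATF4 targets that were tested, Vegfa and Vldlr increased, Xpot and Ndrg1 decreased, and Ddit4 and Eif4ebp1 were not called (median log2 fold change -0.03). Vegfa, which encodes an angiogenic growth factor, had 646, 591 and 528 reads under DMSO, against 1118, 1335, 1170 and 1112 under purmorphamine (log2 fold change 0.96, adjusted p = 1.35e-08 from edgeR). Vldlr, for the very-low-density lipoprotein receptor, had 197, 175 and 175 reads under DMSO, against 318, 377, 333 and 313 under purmorphamine (0.83, adjusted p = 9.66e-07). In both, all purmorphamine libraries were above vehicle.

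Of 5 paralogs of the 10 genes, 4 increased and Trib1 decreased (median log2 fold change 0.24). Trib2 had 1073, 1078 and 1090 reads under DMSO, against 2780, 2593, 2966 and 2788 under purmorphamine, all far above vehicle (log2 fold change 1.32, standard error 0.0539, adjusted p = 3.47e-12 from edgeR), while Trib1 had 163, 174 and 166 reads and then 102, 96, 94 and 88 (-0.87, adjusted p = 2.33e-06). The 3 tribbles genes therefore had log2 fold changes of -0.87, 1.32 and -1.36 for Trib1, Trib2 and Trib3. Sesn1 (0.29, adjusted p = 7.75e-05), Sesn3 (0.24, adjusted p = 0.000684) and Chac2 (0.19, adjusted p = 0.149) increased where Sesn2 and Chac1 were not called, and of these only the comparisons of Sesn2 with Sesn1 and Chac1 with Chac2 were tested, as ratios above.

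Lists for the neighboring stress responses were counted in the same way. Of 20 genes for chaperones of the endoplasmic reticulum and the ATF6 and XBP1 branches of the unfolded protein response, 13 decreased and 2, Herpud1 and Pdia6, increased (median log2 fold change -0.22). Pdia4, a disulfide isomerase gene, had 5170 ± 51.2 reads under DMSO, against 2853 ± 117 under purmorphamine (log2 fold change -0.90, adjusted p = 3.62e-11 from edgeR), and Hspa5, for the chaperone BiP, had 15240 ± 255 and 10530 ± 413 (-0.58, adjusted p = 1.82e-08). Of this list only Pdia4 is named by rule, the others being named after their values were seen. The ER stress response element was found in 7 of the 17 promoters of this list, in none of the 10 genes and in 0.119% of all promoters.

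Genes of NRF2 and glutathione, relevant to Slc7a11 and Chac1, divided into 7 that decreased and 5 that increased of 12 (median log2 fold change -0.14). Nqo1, a quinone reductase gene and NRF2 target, had 2463 ± 144 reads under DMSO, against 1075 ± 166 under purmorphamine (log2 fold change -1.24, adjusted p = 2.45e-09 from edgeR). Those that increased, named after their values were seen, were Nfe2l2, which encodes NRF2, Gclc and Gclm, the subunits of the first enzyme of glutathione synthesis, Gsr and Srxn1, by 0.11 to 0.33 on the log2 scale. A core of the antioxidant response element, TGACNNNGC, was found in the promoters of Phgdh, Asns and Sesn2 but not in that of Slc7a11, and in 12.4% of all promoters.

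The p53 targets, listed because Sesn2 is one, were divided also: of 10 tested, Eda2r, Trp53inp1 and Zmat3 increased and Cdkn1a and Phlda3 decreased. Eda2r, a receptor gene of the tumor necrosis factor family, moved the most, from 297 ± 17.3 reads (SD, n = 3) to 1120 ± 55.2 (SD, n = 4; log2 fold change 1.87, adjusted p = 5.58e-13 from edgeR), whereas Cdkn1a, for the cell cycle inhibitor p21, decreased by a small amount (-0.13, adjusted p = 0.0335). The median log2 fold change of this list was 0.03, and its genes other than Eda2r were named after their values were seen.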

How the data were processed

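Total RNA for 7 libraries of C3H10T1/2 cells was depleted of ribosomal RNA and sequenced by the authors with a strand-specific kit and single reads. Per the submitters' processing notes the tools included STAR 2.5.3a and the build mm9; the counter and annotation release are not given in the sources used here. The authors resampled reads to equal depth and deposited sense-strand counts per gene. A depth equalized this way hides differences in sequencing yield, and counting error is that of the resampled reads. All 7 columns were used, grouped by label.

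The counts were tested with edgeR 4.0.16 (R 4.3.3, limma 3.58.1), with TMM factors (0.978 to 1.02), the default filter (a minimum count of 10 and a total of 15, leaving 12388 of 18468 genes), quasi-likelihood fits without covariates and Benjamini-Hochberg adjustment, called at 0.2. The study itself used limma-voom, run here as an alternative beside DESeq2 1.42.0, other scaling, other filters, other thresholds and each library left out. Single genes and ratios were also compared by exact permutation tests over 35 assignments, on log2 scaled counts or ratios with 1 added (scipy 1.17.1). On simulated counts (12328 genes tested, 196 changed by 2-fold), 96.4% of changes were recovered and 24.1% of calls were false. In the data 62.5% of genes were called, many with changes under 2-fold, so neither share carries over to the calls here. Within a group, libraries differed by a chi-square of 2.07 to 8.03 per gene, so that none was a copy of another.

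The 10 genes and the 11 lists were chosen with earlier results of these data known. In each list the genes named by rule were those called with a mean of at least 50 reads and a change of at least 1.5-fold, at most 3 in each direction, or the largest change where none qualified, and other list genes were named after their values were seen. Some genes counted in the lists are not reported here by name. Positions are from GENCODE M21 (GRCm38) by Ensembl identifier (17632 genes, 95.5%), and promoters from RefSeq (GRCm38.p6), matched by symbol for all 10 genes.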

Additional observations from a re-analysis of the deposited data

Results flagged for a closer look

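Among the 4 purmorphamine libraries, 1 library stood apart from the rest for 2 of the 33 genes and ratios examined, by the ratio of its gap to the group's range (Dixon's test at its 95% critical value), where about 1.65 would be flagged by chance. For Slc7a11 the ratio was 0.853, with replicate 6 at 9 reads against 2, 3 and 3. For Amt it was 0.915, with replicate 7 at 78 reads against 108, 109 and 111.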

How the results depend on the processing

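Of 147 values of the 10 genes under an alternative, 142 kept their direction and side of the threshold. Those that did not were the log2 fold change of Atf4, which was 0.0245 when scaled by library totals alone (adjusted p = 0.705) and ran from -0.0446 to 0.0077 with each library left out in turn (0.0077 without purmorphamine replicate 7), that of Sesn2, which ran from -0.0967 to 0.0037 (0.0037 without the same library), and those of Ddit3 (0.23) and Shmt2 (-0.25), which passed the test but not a further requirement of 1.5-fold. With that requirement 977 of all genes increased and 936 decreased, and of the 10 genes 0 increased and 5 decreased. With at least 10 counts in every library, Trib3, Chac1 and Slc7a11 were not tested and 4 of the 10 decreased. In every other alternative, DESeq2, limma-voom and an adjusted p under 0.05 included, 1 of the 10 increased and 6 decreased. With each library left out in turn, 3500 to 3961 genes increased and 3374 to 3793 decreased, the log2 fold change ran from -2.37 to -1.50 for Slc7a11 and from -1.55 to -1.18 for Trib3, and the adjusted p reached 0.101 for Ddit3 and 0.126 for Shmt2. Library totals alone gave 4650 genes increased and 3163 decreased and moved the median of all genes to 0.05. Of 225 values for the list genes named by rule, 222 kept their call, and Eif2s1, Nupr1 and Tars did not reach 1.5-fold. Counts in the lists that moved by over 1.5 times, apart from the 1.5-fold requirement, were the upstream genes increased (1 with library totals and without purmorphamine replicate 7 or 8), other synthesis enzymes increased (1 with library totals and without purmorphamine replicate 7), partner factors decreased (2 with no filter and without DMSO replicate 2), NRF2 genes decreased (4 without DMSO replicate 4 and at an adjusted p under 0.05) and p53 targets increased (5 with library totals). The causes were not tested. No paired analysis was possible because none of the replicate numbers occurs in both groups. Depth limits Chac1, Slc7a11 and Trib3, whose counts did not exceed 35 reads in any library.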
